A study of Mus musculus with 4 samples.

Results

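Transcripts of 9 genes that encode surface partners of TIMP1 and related tetraspanins were examined in NIH3T3 cells after Timp1 was targeted by siRNA. The genes were Cd63, Cd82, Cd9, Cd81, Cd151, Cd44, Lrp1, App and Cd74. They were chosen because their proteins are reported to bind TIMP1 or belong to the same tetraspanin family. That rule used no measured values, but the choice was made with earlier results of these data known. Every non-control probe that the array files name after 1 of these genes was taken, which gave 19 of 56605 probes. The tested cells received siTIMP1 (2 arrays) and were set against cells that received siControl (2 arrays). NIH3T3 is an established mouse fibroblast line, known to derive from embryos, while the cell type field of the labels calls the cells dermal fibroblasts. In both groups the siRNA was delivered with apatite nanoparticles, abbreviated sCA in the labels, and the cells were held in medium with 2% foetal calf serum. Age, clone and time after transfection are not given in the sources used here, nor is it said whether the 2 arrays of a group stand for separate cultures. The p-values therefore cover only differences between these 4 samples, which may be technical.

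TIMP1 is a secreted inhibitor of matrix metalloproteinases that also acts as a ligand at the cell surface. In human cells it is reported to bind the tetraspanin CD63 in a complex with integrin beta 1, and binding to CD82, CD44, LRP1, APP and CD74 has been reported in other settings. Tetraspanins are small proteins that cross the membrane several times and gather integrins, immunoglobulin-family proteins and the protease ADAM10 into membrane domains, and CD63, CD9 and CD81 are widely used as markers of extracellular vesicles.

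The RNA, carrying Cy3, was measured on 1-colour Agilent arrays whose probes are 60 bases long. The 4 arrays shared 1 slide and 1 scan, with siTIMP1 at positions 3 and 4 and siControl at positions 1 and 2, so position and group cannot be told apart. The share of spots well above background was 50.4% and 45.9% on the siTIMP1 arrays and 50.7% and 52.1% on the siControl arrays, and no spot was saturated. Signals below are the processed intensities of the scanner files. Levels are log2 of that signal over the array's 75th percentile, and differences are siTIMP1 minus siControl in this log2 level, with SE for the standard error from a limma fit over 26015 tested probes. Testing required that both arrays of siTIMP1, or both of siControl, read the probe well above background. Signals of different probes are not comparable with each other, so no order of levels among the genes is given.

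Timp1 itself gave signals of 1840 and 1492 on the siTIMP1 arrays, against 53297 and 67559 on the siControl arrays. It fell by 5.22 on the log2 scale (SE 0.158, limma adjusted p = 0.0105), a fold of 0.0268 (95% interval 0.0202 to 0.0354). The fall lay between -5.41 and -5.04 with any 1 array omitted, yet omitting siTIMP1 replicate 1 gave an adjusted p of 0.139 and omitting siTIMP1 replicate 2 one of 0.187. The probe (chromosome X, 20451675 to 20451733, mm9, plus strand) is shown because its signal stands for the targeted transcript:
Timp1 probe: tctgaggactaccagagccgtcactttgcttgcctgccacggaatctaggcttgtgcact

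None of the surface partners or tetraspanins passed the same test. Of the 19 probes, 17 were tested, covering 8 of the 9 genes, and limma called 0 higher and 0 lower at an adjusted p under 0.05. The share called over all tested probes was 0.688%, made up of 0.0615% higher and 0.627% lower. The count was also 0 at an adjusted p under 0.1, which 2.17% of all tested probes passed. An unadjusted p under 0.05 was reached by 3 of the 17 (18.4% of all tested probes). Of these, 2 were higher (10.6% of all) and 1 lower (7.70% of all). Both siTIMP1 arrays lay beyond both siControl arrays for 9 of the 17 probes (53.0% of all tested probes), 7 with siTIMP1 higher (29.8% of all) and 2 with siTIMP1 lower (23.2% of all). Among the lower ones, a dim further Lrp1 probe was tested only because it passed in siControl, the group where it read higher. With quantile normalization or with the percentile over detected probes, 4 probes lay apart with siTIMP1 higher and 3 with siTIMP1 lower. These counts were 8 and 2 with normexp background correction, and 7 and 2 with the authors' value table. The difference was above 0 for 13 of the 17 probes, against 52.9% of all tested probes. That count was also 13 with quantile normalization and with normexp correction, and 11 with the percentile over detected probes. Shares over all tested probes were not taken under these other settings, so changes in these counts are not read as results about these genes. The median difference of all tested probes moved as well. It was 0.019 as reported, 0.0015 with quantile normalization, 0.012 with normexp correction and -0.023 with the percentile over detected probes. Probes of the same gene are not independent. By the brightest tested probe, 6 of the 8 genes were above 0, against 54.0% of all tested genes. Differences of the 8 measured genes, each by its brightest tested probe, lay between -0.23 and 0.19 with a median of 0.10, where the median of all 17734 tested genes was 0.02. By that probe the groups were apart for 4 genes with siTIMP1 higher (31.0% of all tested genes) and for 1 with siTIMP1 lower (23.0% of all). Over the 17 tested probes, the median absolute difference between the siTIMP1 arrays was 0.121 and that between the siControl arrays 0.0886, and between arrays of different groups it was 0.160 to 0.203. Over all tested probes the same measure was 0.118 between the siTIMP1 arrays, 0.145 between the siControl arrays and 0.190 to 0.210 between groups.

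**Figure D1:**
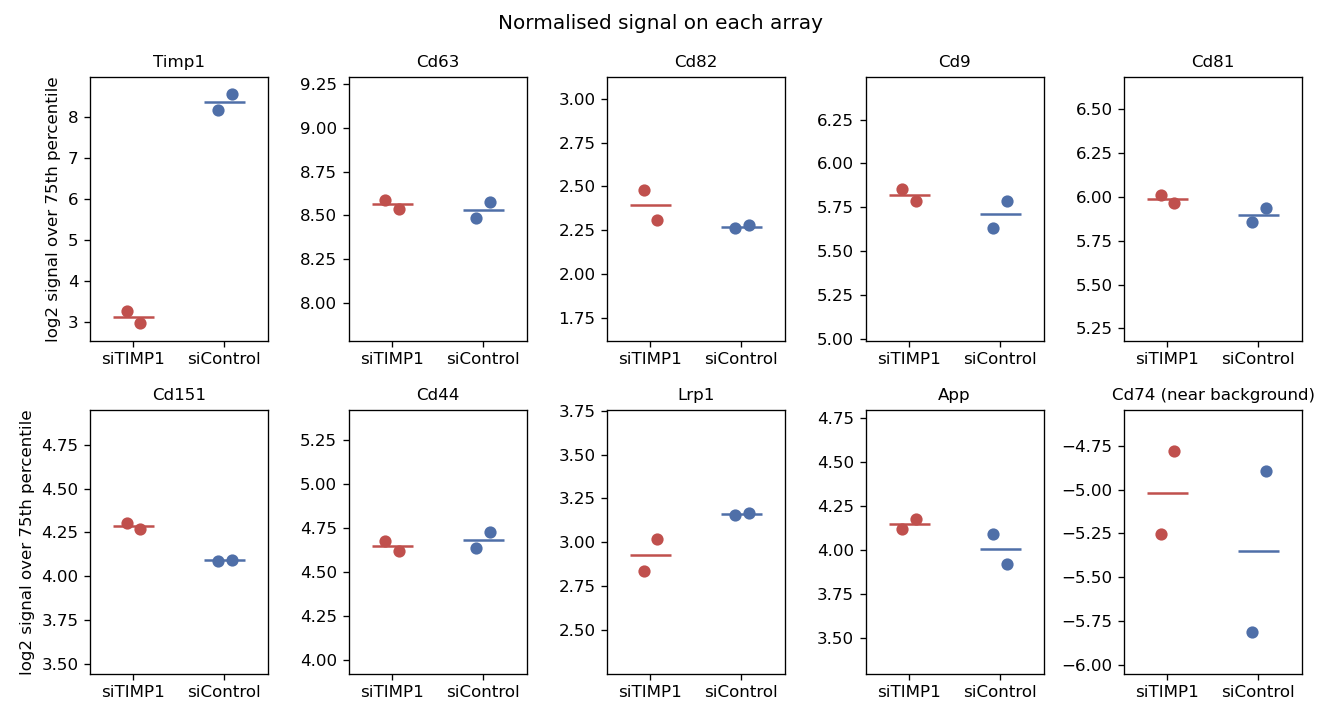
Normalised log2 signal of Timp1 and the 9 surface partner and tetraspanin genes on each array, with siTIMP1 left and siControl right. Points are arrays and lines are group means (n = 2 each). All panels except that of Timp1 span the same range on the log2 scale. Timp1 is the gene with widely separated groups, and the groups of Cd63, Cd9, Cd44 and Cd74 overlap.

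Cd63, the tetraspanin of lysosomes and exosomes that is the reported receptor of TIMP1, was the most precisely measured of these genes. Its probe, on chromosome 10 at 128349813 to 128349872 (mm9, plus strand), is printed in 10 spots on each array. The mean signals were 73207 and 70621 on the siTIMP1 arrays and 66759 and 69387 on the siControl arrays. The siTIMP1 values were the higher ones by signal, but after scaling siTIMP1 replicate 2 lay between both siControl arrays. The normalised level averaged 8.56 ± 0.036 in siTIMP1 and 8.53 ± 0.063 in siControl (SD, n = 2 each). The difference was 0.03 (SE 0.0464, limma adjusted p = 0.713), and the 95% interval of the fold was 0.943 to 1.11. Spots on 1 array had SDs of 0.0327 to 0.0539, close to the spread between arrays of a group. The sign of this small difference turned to -0.01 under scaling to detected probes only, and likewise when siControl replicate 1 was omitted.

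The genes whose 4 values followed those of Cd63 most closely were Itfg1, Ankrd40 and Frg1, by Euclidean distance of log2 levels centred on each gene's own mean over the 4 arrays. The distances were 0.00834, 0.00886 and 0.0114. Their differences were 0.04 for Itfg1, 0.04 for Ankrd40 and 0.04 for Frg1, none of them called (limma adjusted p = 0.786, 0.882 and 0.796). With 4 arrays this likeness is a description only.

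Cd82 encodes a tetraspanin known as a suppressor of metastasis, and 4 probes on chromosome 2 read it. The brightest gave signals of 1061 and 939 in siTIMP1, against 894 and 883 in siControl, and a difference of 0.12 (SE 0.0875, limma adjusted p = 0.483). The value was 0.04 without siTIMP1 replicate 1 and 0.21 without siTIMP1 replicate 2. A second probe shares 55 of its 60 bases of genome with the first and is no independent measurement. It gave 900 and 778 in siTIMP1, against 790 and 700 in siControl, and a difference of 0.13. The groups did not overlap for the first of these probes and overlapped for the second. Another probe, 685 bases from the second, had a difference of 0.36 (SE 0.194, limma adjusted p = 0.381), with signals of 47.1 and 49.6 in siTIMP1, against 42.6 and 31.4 in siControl. The fourth, 13941 bases or more from the others, read 23.5 and 39.1 in siTIMP1, against 23.6 and 35.7 in siControl, with a difference of 0.02 (SE 0.349). All 4 probes of Cd82 had a positive difference, and none passed the test. The sign of the fourth turned with the percentile over detected probes, without siTIMP1 replicate 2 and without siControl replicate 1.

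Cd9, a tetraspanin that acts in cell adhesion and in the fusion of egg and sperm, was read by 1 probe matching its mRNA, on chromosome 6 at 125410631 to 125410690 (mm9, minus strand). The signals were 10972 and 10478 on the siTIMP1 arrays, against 9225 and 10057 on the siControl arrays. After scaling, siTIMP1 replicate 2 and siControl replicate 2 nearly coincided, at 5.787 and 5.788. The difference was 0.11 (SE 0.0704, limma adjusted p = 0.445), and its value ran from 0.03 to 0.19 over the alternatives. The other probe named Cd9 matches a cDNA clone on the opposite strand, 34577 bases away, and was not well above background on any array, with signals of 1.67 and 2.74 in siTIMP1 and 1.65 and 1.52 in siControl.

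Cd81, a tetraspanin of extracellular vesicles, was read by 2 probes that gave differences of unlike size. The brighter one, on chromosome 7 at 150253737 to 150253796 (mm9, plus strand), gave signals of 12231 and 11850 in siTIMP1, against 10768 and 11121 in siControl. Its difference was 0.09 (SE 0.0532, limma adjusted p = 0.402). It was 0.00462 with quantile normalization, and the mean of both probes gave 0.19. The other gave 1418 and 1357 in siTIMP1, against 1131 and 1079 in siControl, so that both siTIMP1 arrays lay well apart from both siControl arrays. This probe had the smallest p of the 17, with a difference of 0.28 (SE 0.0687, 95% interval 0.11 to 0.46, unadjusted p = 0.00881), but its limma adjusted p of 0.155 missed the threshold. The difference between the probes was not tested. The second probe spans 444 bases of genome with 60 bases of sequence, from 150252642 to 150253085 on chromosome 7 (mm9, plus strand), so its bases are split over the genome. It is shown because it marks which stretch of the transcript gave the larger value:
Cd81 second probe: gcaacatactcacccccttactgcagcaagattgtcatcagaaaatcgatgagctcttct

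Cd151, which ties laminin-binding integrins into tetraspanin domains, had the most positive difference among the genes by their brightest probe. Its probe lies on chromosome 7 at 148657237 to 148657297 (mm9, plus strand). The signals were 3749 and 3656 in siTIMP1, against 3171 and 3102 in siControl, and the groups did not overlap. Normalised levels averaged 4.29 ± 0.024 in siTIMP1 and 4.09 ± 0.00070 in siControl (SD, n = 2 each). The difference of 0.19 (SE 0.0560, 95% interval 0.05 to 0.34) is a fold of 1.14, with an unadjusted p of 0.0173 and a limma adjusted p of 0.188. It stayed between 0.14 and 0.22 over 14 alternatives, none of which called it. Over all tested probes, 21.1% had a more positive difference.

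**Figure D2:**
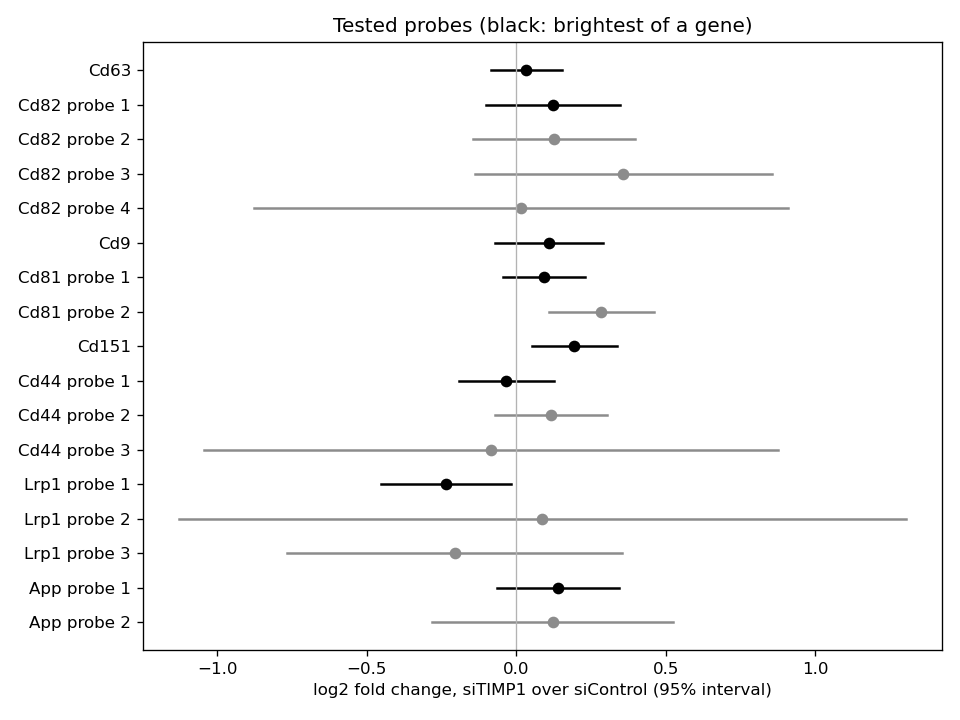
Log2 fold change, siTIMP1 over siControl, of the 17 tested probes with the 95% interval of the limma fit, in black for the brightest tested probe of a gene and in grey for its others. The intervals of the second Cd81 probe, Cd151 and the first Lrp1 probe lie to 1 side of 0, and each of these had an adjusted p above the threshold.

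Cd44 is the main receptor for hyaluronan and is spliced into many forms through a row of variable exons. Its brightest probe, on chromosome 2 at 102652758 to 102652817 (mm9, minus strand), gave signals of 4856 and 4653 in siTIMP1, against 4627 and 4814 in siControl. The groups overlapped, and the difference was -0.03 (SE 0.0621, limma adjusted p = 0.785), with a 95% interval of the fold from 0.874 to 1.09. A second probe, 1460 bases from the first, gave 1572 and 1707 in siTIMP1, against 1480 and 1448 in siControl, a difference of 0.12 (SE 0.0732, limma adjusted p = 0.436). The probes did not share a sign, and that of the first probe turned without siControl replicate 2. The third probe lies on chromosome 2 at 102677971 to 102678030 (mm9, minus strand). The array files name 3 RefSeq transcripts for it and 4 for each of the other probes, and it is shown because it is named for a subset of them. That it reads a variable exon is background knowledge, which was not checked against a genome:
Cd44 subset probe: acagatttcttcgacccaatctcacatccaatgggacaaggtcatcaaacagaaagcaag
This probe was near background, with signals of 25.4 and 12.9 in siTIMP1, against 19.6 and 17.7 in siControl, and it was not well above background on siTIMP1 replicate 2. Its difference of -0.08 had an SE of 0.375, so the fold could lie between 0.485 and 1.84.

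Lrp1 encodes a large endocytic receptor that clears proteases, their inhibitors and matrix proteins from the cell surface, and it was the gene with the lowest difference. The probe that matches its mRNA lies on chromosome 10 at 126975573 to 126975632 (mm9, minus strand). It gave signals of 1358 and 1537 in siTIMP1, against 1661 and 1635 in siControl. Both siTIMP1 arrays were lower than both siControl arrays, and the siTIMP1 arrays differed more from each other than the siControl arrays did. Normalised levels averaged 2.93 ± 0.128 in siTIMP1 and 3.16 ± 0.0071 in siControl (SD, n = 2 each). The difference was -0.23 (SE 0.0846, 95% interval -0.45 to -0.02), a fold of 0.850, with an unadjusted p of 0.0385 and a limma adjusted p of 0.247. It was -0.14 without siTIMP1 replicate 1 and -0.33 without siTIMP1 replicate 2. Further probes named Lrp1 lie 49164 and 50595 bases away and match other transcripts or clones at the locus. Each was well above background on 3 of 4 arrays, namely the siControl arrays and 1 siTIMP1 array, so each was tested through siControl alone. The one read 40.1 and 15.3 in siTIMP1, against 23.1 and 22.2 in siControl (difference 0.09, SE 0.475). That difference was -0.61 without siTIMP1 replicate 1 and 0.78 without siTIMP1 replicate 2. The other read 18.3 and 16.8 in siTIMP1, against 20.4 and 18.9 in siControl (difference -0.21, SE 0.219). With the mean of all tested probes the value for Lrp1 was -0.12.

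App encodes the amyloid precursor protein, a surface protein of many cell types that is cut by secretases. Its brightest probe, on chromosome 16 at 84954712 to 84954771 (mm9, minus strand), gave signals of 3296 and 3425 in siTIMP1, against 3174 and 2752 in siControl. The groups did not overlap, although siTIMP1 replicate 1 and siControl replicate 1 lay within 0.03 of each other after scaling (4.117 and 4.092). The difference was 0.14 (SE 0.0798, limma adjusted p = 0.400), and omitting siControl replicate 1 gave 0.23, omitting siControl replicate 2 gave 0.05. A second probe is taken, from background knowledge not checked against a genome, to read forms with an inserted exon. It spans 3328 bases of genome from 85040497 to 85043824 on chromosome 16 (mm9, minus strand), and the array files name 2 RefSeq transcripts for it and 4 for the first probe:
App insert probe: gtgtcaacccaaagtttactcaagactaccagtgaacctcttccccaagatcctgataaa
The insert probe gave 61.4 and 75 in siTIMP1, against 58.5 and 62.5 in siControl, with overlapping groups. Its difference was 0.12 (SE 0.158, limma adjusted p = 0.698), close to that of the first probe, and the 95% interval of its fold was 0.822 to 1.44.

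Cd74, the invariant chain of MHC class II and a receptor of the cytokine MIF, was not well above background on any of the 4 arrays. The signals of its probe on chromosome 18 were 4.97 and 6.89 in siTIMP1 and 3.31 and 6.13 in siControl, so no fold is given and it was not tested. H2-Aa, H2-Ab1, H2-Eb1 and Ciita, which encode MHC class II chains and the factor that switches them on, were also untested for low signal, as were Cxcr2, Cxcr4, H2-DMb2, Rfx5 and Ctss. Of 18 listed genes around CD74, MIF and MHC class II, 9 were tested and none was called (1 higher at an unadjusted p under 0.05). Over all tested genes, 0.784% were called, and 11.8% were higher and 7.98% lower at the unadjusted threshold. Mif had signals of 23030 and 22977 in siTIMP1, against 22268 and 21489 in siControl, and a difference of 0.03. Its relative Ddt had a difference of 0.15, the scavenging chemokine receptor Ackr3 of -0.46 (-0.10 without siControl replicate 2) and H2-DMa, a chaperone of peptide loading, of 0.26.

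**Figure D3:**
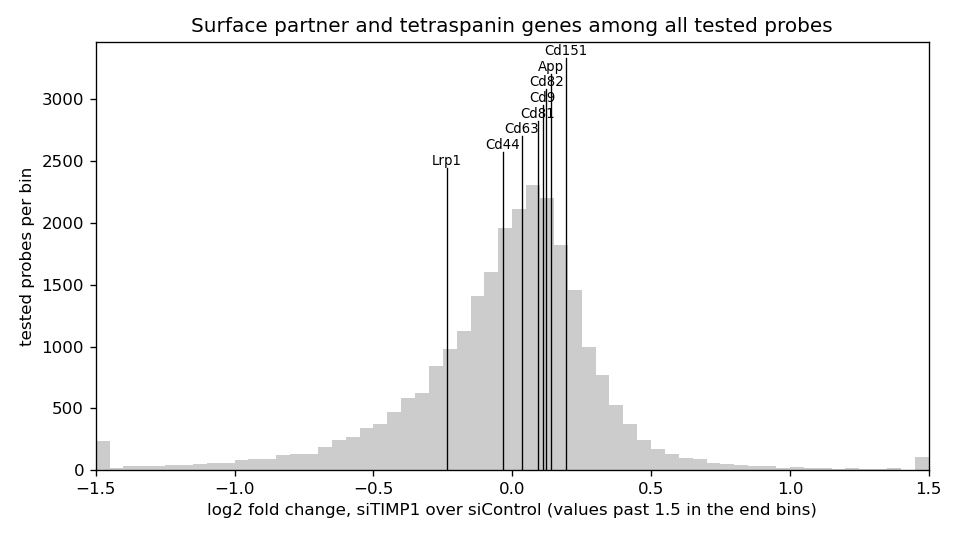
Number of tested probes per bin of log2 fold change (siTIMP1 over siControl), with the values of 8 genes by their brightest probe as vertical lines. All 8 lie between -0.23 and 0.19, within the body of the distribution. Values past 1.5 in size are counted in the end bins.

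Related genes were counted in lists that were chosen with earlier results of these data known. Among 26 further tetraspanins, 15 were tested, none was called and 4 had an unadjusted p under 0.05 (3 higher, 1 lower). Of all tested genes, 0.784% were called, 0.0846% higher and 0.699% lower, and 11.8% were higher and 7.98% lower at the unadjusted threshold. The median difference was 0.13, and 12 of the 15 were above 0, as were 54.0% of all tested genes. Tspan3 had signals of 5025 and 5007 in siTIMP1, against 4460 and 4403 in siControl, a difference of 0.13 (SE 0.0522, limma adjusted p = 0.272). Tspan4 had 0.15 and Tspan5 0.22, while Cd37, a tetraspanin of leukocytes, had -0.25. The median of this list was 0.083 with quantile normalization and 0.178 without siControl replicate 2.

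Partners of tetraspanins held the called gene of these lists. Adam10, the sheddase that tetraspanins carry to the cell surface and that also cuts APP and CD44, fell by 1.09 (SE 0.0931, limma adjusted p = 0.0281), with signals of 416 and 387 in siTIMP1, against 793 and 859 in siControl. Its other tested probe had a difference of -1.04. The call was lost without siTIMP1 replicate 1 (adjusted p = 0.176), without siTIMP1 replicate 2 (0.232), in limma without a trend (0.134) and with the mean of its probes (0.0837). It was the single call among 23 tested partners of 26, where 0.784% of all tested genes were called. An unadjusted p under 0.05 was reached by 6 of them, 4 higher (11.8% of all tested genes) and 2 lower (7.98% of all). The list median was 0.01. Itgb1, the integrin chain reported in the complex of TIMP1 and CD63, had signals of 10855 and 10868 in siTIMP1, against 9726 and 10500 in siControl, and a difference of 0.06 (SE 0.0641, limma adjusted p = 0.640). Of the integrin alpha chains, Itga3 had 0.14 (-0.05 by its other probe) and Itga5 -0.05. Itga6 had -0.39 (-0.49 and -0.11 by its other probes), and Itga7 had -0.02 (-0.49 by its other probe). The value of Itga3 was -0.12 without siControl replicate 1, and none of these was called. A subset of tetraspanins is known to escort ADAM10, and their values are given here although they were picked after Adam10 was seen to be called. Tspan5 had 0.22, Tspan14 0.09, Tspan15 0.02 (-0.42 by its other probe), Tspan17 0.06 and Tspan33 -0.23, none of them called, and Tspan10 was not tested.

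Genes around APP included the same Adam10 call and no other among 21 tested of 24 (0.784% of all tested genes were called). An unadjusted p under 0.05 was reached by 4, 1 higher (11.8% of all) and 3 lower (7.98% of all). The list median was -0.05, and it was -0.14 without siControl replicate 1 and -0.10 with quantile normalization. The APP relative Aplp2 had a difference of -0.05, with signals of 2251 and 2365 in siTIMP1, against 2358 and 2269 in siControl. Adam9 had 0.05, Adam17, another sheddase, had -0.14 (-0.40 and -0.13 by its other probes) and the beta secretase gene Bace1 had -0.22. Without siControl replicate 2, Adam17 had -0.02 and Bace1 had 0.03. None of these 4 was called.

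Hyaluronan and CD44 genes gave no call among 18 tested of 20 (0.784% of all tested genes were called), and their median was -0.0033. An unadjusted p under 0.05 was reached by 4, 2 higher (11.8% of all) and 2 lower (7.98% of all). The hyaluronan synthase Has2 had signals of 1934 and 1959 in siTIMP1, against 1669 and 2106 in siControl, and a difference of 0.01. Has1 had -0.18, and the hyaluronidase genes Hyal1 and Hyal2 had -0.01 (0.10 by its other probe) and 0.01. The median of this list was 0.11 without siControl replicate 2.

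Relatives and helpers of LRP1 gave no call among 16 tested of 19 (0.784% of all tested genes were called). An unadjusted p under 0.05 was reached by 3, 2 higher (11.8% of all) and 1 lower (7.98% of all). Their median was 0.07, which was 0.02 without siControl replicate 2 and 0.03 with the percentile over detected probes. Lrpap1, the chaperone of LRP1, had signals of 1036 and 1063 in siTIMP1, against 990 and 931 in siControl, and a difference of 0.08. Vldlr, a receptor of lipoproteins, had a difference of 0.76 (SE 0.398, limma adjusted p = 0.368), with 389 and 358 in siTIMP1, against 331 and 138 in siControl, where siControl replicate 2 was the low array. Lrp3 had a difference of 0.13, which was -0.16 without siControl replicate 2. Among ligands of LRP1, 16 of 19 were tested and none was called. An unadjusted p under 0.05 was reached by 5, 3 higher (11.8% of all) and 2 lower (7.98% of all). Serpine2, an inhibitor of plasminogen activators, had a difference of 0.21, and the activators Plat and Plau had -0.17 and -0.03. The median of the ligands was 0.05, and it was -0.05 without siControl replicate 1.

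Survival signalling below CD63 and integrin beta 1, a list of 20 genes that were all tested, gave no call (0.784% of all tested genes were called). An unadjusted p under 0.05 was reached by 5, 3 higher (11.8% of all) and 2 lower (7.98% of all). The median was 0.04. The focal adhesion kinase gene Ptk2 had a difference of -0.23 by its brightest probe, while its other 2 tested probes had 0.28 and 0.32. Src had 0.04 and its other probe -0.53, so neither gene had a sign that its probes share. Pik3cb had 0.10. Pik3ca, a catalytic subunit of PI3-kinase, had signals of 2337 and 2195 in siTIMP1, against 2575 and 9599 in siControl. Its difference of -1.18 (SE 0.610, limma adjusted p = 0.364) contains 1 siControl array far from the other 3. The medians of the partners, the CD44 and hyaluronan genes and the survival list depended in sign on the processing. With quantile normalization they were -0.03, -0.04 and -0.02, and with normexp background correction 0.03, 0.02 and 0.03.

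**Figure D4:**
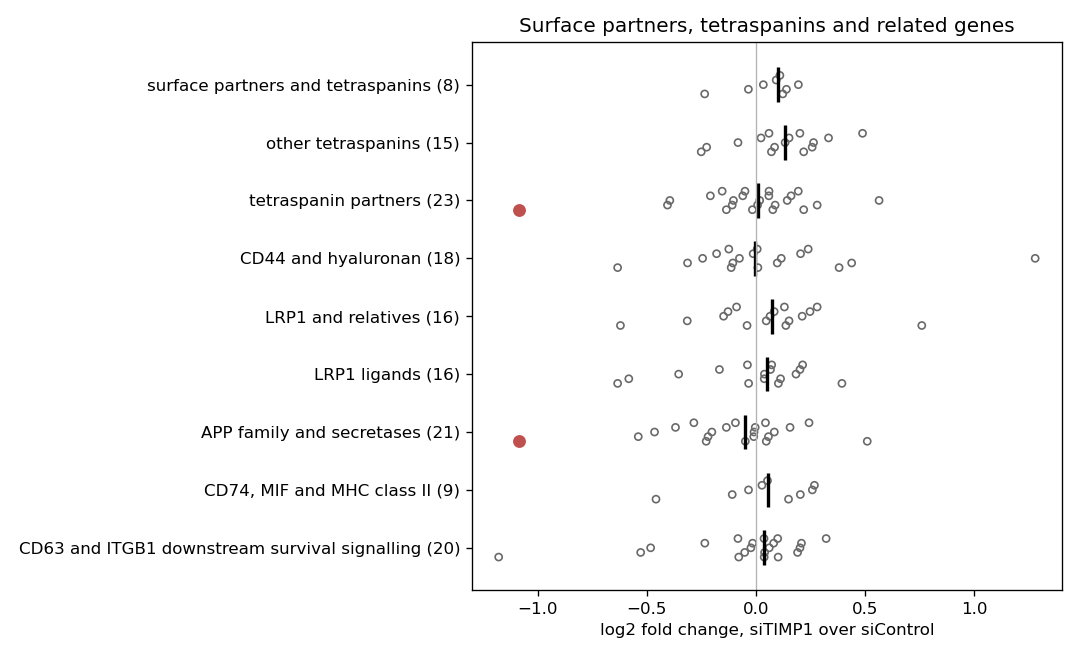
Log2 fold change, siTIMP1 over siControl, of each tested gene in the surface partner and tetraspanin set (top) and in 8 lists of related genes, with the number tested in brackets. Circles are genes by their brightest tested probe, black bars are list medians, and filled points are called genes. Adam10, which is in 2 lists, is the called gene.

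Markers of the cells were read beside these values. Of 15 fibroblast markers 14 were tested, and their summed level, in multiples of the 75th percentile, was 2317 to 2329 in siTIMP1 and 2178 to 2326 in siControl. Fap was not tested for low signal. The brightest of them (S100a4, Col1a2, Vim and Fn1) carry much of that sum, and 4 of the 14 had an unadjusted p under 0.05 (1 higher, 3 lower). Over all tested genes, 11.8% were higher and 7.98% lower at that threshold. Pdgfra, a receptor of platelet-derived growth factor, had the smallest p of them, with signals of 587 and 506 in siTIMP1, against 1054 and 898 in siControl. Its difference was -0.88 (SE 0.116, limma adjusted p = 0.0618) by the brightest probe, but only -0.40 and -0.20 by its other tested probes. Of 12 macrophage and leukocyte markers 7 were tested, with a summed level of 16.0 to 17.3 in siTIMP1 and 19.1 to 19.6 in siControl. At the unadjusted threshold 2 of the 7 were lower (7.98% of all tested genes), while Adgre1, Lyz2, Tyrobp, C1qa and C1qb were too dim. The 7 did not share a sign, as 3 of them had a difference above 0 (54.0% of all tested genes). B cell and dendritic cell markers had 2 of 10 tested (78.2 to 100.1 in siTIMP1, 88.2 to 98.3 in siControl), nearly all of it from Siglech, and Cd79a and Cd79b were too dim. Epithelial markers had 3 of 9 tested (0.465 to 0.577 in siTIMP1, 0.431 to 0.563 in siControl) and endothelial markers 1 of 8 (0.0917 to 0.0979 in siTIMP1, 0.0536 to 0.111 in siControl). Each sum adds unlike probes, so it can be set against the other group but not against another list. None of these markers was called, and their part in the values above was not tested. In bulk RNA, fewer cells of a type and less RNA per cell cannot be told apart.

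**Figure D5:**
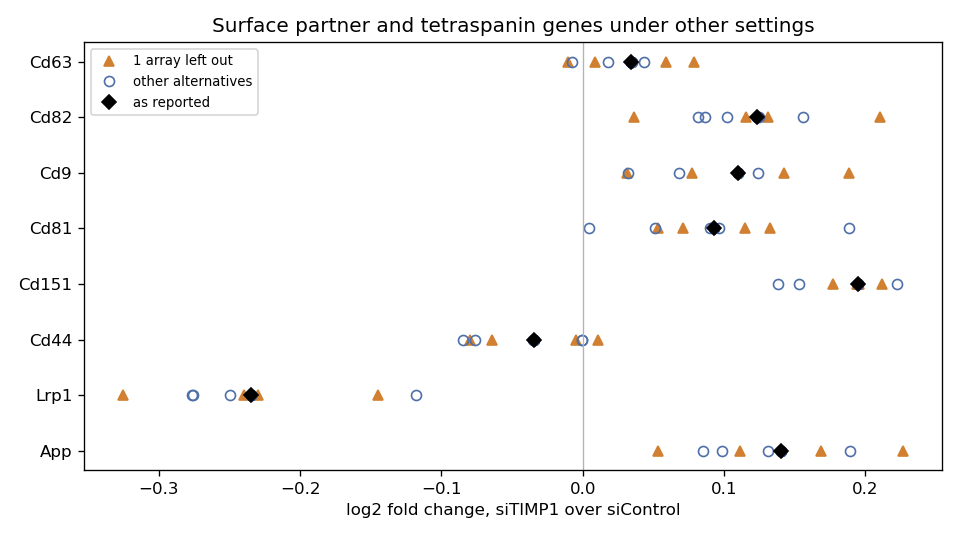
Log2 fold change, siTIMP1 over siControl, of the 8 measured genes as reported and under each alternative. Cd151 lies between 0.14 and 0.22 and Lrp1 between -0.33 and -0.12, while Cd63 and Cd44 cross 0.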

How the data were processed

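Spot intensity values were deposited as Agilent Feature Extraction 11.5.1.1 output, version per the submitters' processing notes. Background subtraction and detrending within an array made the processed intensity, per the file headers, which also give mm9 coordinates and no scaling between arrays. The authors' deposited value table holds log2 values and followed the log2 processed signal less 1 constant per array (6.90 to 6.96), so its scale, centring and direction are known. Its column medians were -3.99 and -3.91 for siTIMP1 and -3.94 and -3.86 for siControl.

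Signals were divided by the 75th percentile of all non-control spots on the array and put on a log2 scale, outlier spots (136 to 250 per array) were dropped, and spots of a probe were averaged. Groups, taken from sample titles, were set against each other in R 4.3.3 with limma 3.58.1 (eBayes with a trend), Benjamini-Hochberg over 26015 probes, threshold 0.05. This fit was tested on simulated data. RefSeq accessions updated 1535 symbols. The brightest tested probe represented a gene. Named were all 9 genes, Timp1, every called gene of a list with the first 4 listed genes well above background on all arrays, and 3 genes most like Cd63. Itga7, untested genes, cell markers (Pdgfra for its smallest p) and the further tetraspanins that escort ADAM10 were named beside this rule. Some genes that this rule takes are not reported here. Members and lists were chosen with earlier results of these data known. Replicate numbers follow accession order. Alternatives were normexp correction, quantile normalization, the percentile over detected probes, other filters, eBayes without a trend or robust, outlier spots kept, probes averaged per gene, the authors' table, other thresholds and each array omitted, where limma assumes that a lone array varies like the others. The number of arrays limits the precision. An exact permutation test of 2 against 2 arrays cannot go below p = 0.333. Figures used matplotlib 3.10.9.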

Additional observations from a re-analysis of the deposited data

How the results depend on the processing

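No tested probe of the 9 genes was called under any alternative with the adjusted threshold of 0.05 or 0.1, and at an unadjusted p under 0.05 there were 2 higher and 1 lower. Their values changed sign in 9 of the cases tried, all of them uncalled. The 3 probes that were not well above background on 1 array have no value with the filter on all 4 arrays. Timp1 had -5.22 without a trend (adjusted p = 0.134) and lay between -5.41 and -5.04 with any 1 array omitted. Over all probes, 16 higher and 163 lower became 124 and 334 with no filter, 0 and 0 without a trend, 61 and 249 with robust eBayes, 2770 and 2004 at the unadjusted threshold, and 0 to 485 and 0 to 846 with any 1 array omitted (0 without either siTIMP1 array, 485 and 846 without siControl replicate 1, 99 and 295 without siControl replicate 2). Genes of the 8 related lists, 0 higher and 1 lower, became 2 lower with the percentile over detected probes, 3 lower with no filter, 0 lower without a trend, 2 lower with robust eBayes, 0 lower with probes averaged per gene, and 0 to 5 higher and 0 to 10 lower when 1 array was left out, the most without siControl replicate 1. The cause was not tested. The arrays lay on 1 slide, so it could not be fitted as a block. No paired analysis was possible because replicate numbers here follow accession order and pair no samples. Low signal limits what can be seen of Cd74 and of the third Cd44 probe and the App insert probe.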
